A study of Mus musculus with 7 samples.

Results

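The biliary and progenitor epithelial genes examined here were 10 genes chosen by name, of 32285 genes in the deposited matrices: Epcam, the claudins Cldn3, Cldn4, Cldn6 and Cldn7, the keratins Krt7 and Krt19, the transcription factor Sox9, and the secreted proteins Spp1 and Clu. Their levels were measured in 7 droplet single-cell RNA libraries made from mouse livers, together with their co-detection with Afp, the fetal liver gene alpha-fetoprotein. All 10 were detected in each of the 7 libraries. The study crossed Alb-Cre mice, in which the albumin enhancer and promoter drive Cre, with mice carrying a Cre-activated human MYC transgene under the CAG promoter, both on C57BL/6J, so MYC is switched on in the hepatocyte lineage and whatever else descends from albumin-expressing cells. The tumors of this ABC-Myc model are, by its text, NEJ634, NEJ687, NEJ709 and NEJ723. NEJ638, NEJ654 and NEJ677 are then the healthy livers, from littermates that lack at least 1 of the transgenes. The labels give all 7 libraries the same disease state, no age and no replicate, and the description attached to NEJ709 carries the name NEJ634, so no sample was assigned to a group. Values are therefore given library by library, with no test between tumors and healthy livers and no mean over libraries. Sums over libraries appear only as pooled levels of subclusters and in the plot of levels by cell class.

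In liver, Epcam, Krt7, Krt19 and Sox9 are known from the cells that line bile ducts, the cholangiocytes, and from the bipotent progenitors of the fetal or injured liver, which can give rise to hepatocytes and cholangiocytes. Claudins are the membrane proteins that seal tight junctions between epithelial cells, and each epithelium uses its own set of them. Afp is made by hepatoblasts and fetal hepatocytes, is silent in the adult liver, and is the serum marker of hepatoblastoma.

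Depth and the state of the libraries bear on each value below. The matrices held between 40214395 UMIs (unique molecular identifiers, 1 per captured transcript) in NEJ638 and 132485391 in NEJ634, and 72663 cells were analysed, from 6716 in NEJ638 to 17020 in NEJ634. Levels are UMIs summed over cells per 1000000 UMIs (CPM). They carry exact 95% Poisson intervals in parentheses, which cover counting error alone, and they are not divided by gene length, so a gene is compared across cells and not with another gene. Between 5.30% and 14.96% of the UMIs in cells were estimated to be ambient, that is RNA free in the suspension. Of the cells, 42.0% lay in clusters that could not be named from markers. They include 12719 of the 13998 cells of NEJ709 in a single cluster led by mitochondrial and neutrophil genes, and 2698 cells of NEJ723 with a cluster median of 983.5 UMIs. Some barcodes were kept as cells in more than 1 library (798 barcodes). Where such a barcode held at least 50 times as many UMIs in another library the cell was counted as a faint copy, and 39 cells of NEJ709 were faint copies, all of barcodes in NEJ723. NEJ723 held 10 such cells, all of barcodes in NEJ709. NEJ654 held 20 (17 from NEJ687), NEJ677 held 8 (7 from NEJ687), NEJ638 held 1, and NEJ634 and NEJ687 held 0.

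The promoters of claudins and of Spp1 are shown because Cldn4 and Cldn7 were among the pairs closest in pattern and Spp1 among the least alike. That likeness of pattern leaves out the duct-like epithelial cells described below, which were too few in each library. Those of Epcam and Cldn3 are shown because these genes differed between the epithelial cells described below. The sequences are RefSeq's for GRCm38.p6, the 250 bases upstream of the first annotated start, 5′ to 3′, and capitals mark matches to the motifs searched. Promoters were found for 7 of the 10 genes, Krt19, Sox9 and Clu having no entry. That of Cldn6 lies partly and that of Krt7 wholly inside the GENCODE gene, and neither is printed.
Epcam (chr17:87635729-87635978, plus strand): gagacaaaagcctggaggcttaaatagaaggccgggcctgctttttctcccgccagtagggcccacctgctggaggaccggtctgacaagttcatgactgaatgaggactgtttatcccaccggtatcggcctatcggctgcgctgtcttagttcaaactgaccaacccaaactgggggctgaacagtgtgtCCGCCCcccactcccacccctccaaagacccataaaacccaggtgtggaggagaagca
Cldn3 (chr5:134985964-134986213, plus strand): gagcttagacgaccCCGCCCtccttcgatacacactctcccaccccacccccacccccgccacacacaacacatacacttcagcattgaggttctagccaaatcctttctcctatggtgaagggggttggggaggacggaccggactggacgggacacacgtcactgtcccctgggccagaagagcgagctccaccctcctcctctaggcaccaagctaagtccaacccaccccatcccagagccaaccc
Cldn4 (chr5:134946935-134947184, minus strand): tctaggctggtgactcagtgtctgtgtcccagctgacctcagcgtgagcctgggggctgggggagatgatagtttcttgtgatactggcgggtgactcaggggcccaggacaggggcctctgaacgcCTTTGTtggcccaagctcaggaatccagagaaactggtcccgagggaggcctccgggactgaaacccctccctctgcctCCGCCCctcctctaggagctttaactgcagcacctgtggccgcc
Cldn7 (chr11:69964529-69964778, plus strand): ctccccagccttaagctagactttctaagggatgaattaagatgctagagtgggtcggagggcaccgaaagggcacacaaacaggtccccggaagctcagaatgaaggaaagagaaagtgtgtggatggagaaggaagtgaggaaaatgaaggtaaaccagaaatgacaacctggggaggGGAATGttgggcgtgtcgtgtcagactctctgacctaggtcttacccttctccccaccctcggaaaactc
Spp1 (chr5:104434861-104435110, plus strand): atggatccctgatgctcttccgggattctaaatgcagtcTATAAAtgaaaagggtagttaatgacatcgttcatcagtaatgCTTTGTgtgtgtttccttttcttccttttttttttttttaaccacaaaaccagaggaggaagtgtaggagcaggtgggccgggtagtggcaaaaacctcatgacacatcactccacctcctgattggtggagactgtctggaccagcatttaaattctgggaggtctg
Motifs were searched on both strands and do not overlap each other in these windows. The capitals in Epcam and Cldn3 are a GC box (GGGCGG or its reverse complement). Those in Cldn4 are a SOX-type site (ACAAAG or its reverse complement) and a GC box. The Cldn7 match is TEAD-type (GGAATG). The Spp1 matches are the letters TATAAA, 211 bases upstream of the start, and a SOX-type site. A GC box was present in 5 of the 7 promoters (Epcam, Cldn3, Cldn4, Cldn6 and Krt7), against 32.9% of 27025 promoters of the same length. A SOX-type match was present in 2, against 16.5% of all promoters, and a TEAD-type match in 1, against 12.6%. TATAAA was present anywhere in the window in 1, against 12.97%. An E-box of the MYC type (CACGTG, 6.05% of all promoters), the GRHL-type AACNGGTT (1.71%) and the FOXA-type TGTTTAC (3.09%) had no match in any of the 7. These are matches of letters and say nothing on which factor binds. The genes themselves, by GENCODE M21 on GRCm38, lie at chr17:87635979-87651129 (Epcam), chr5:134986214-134987472 (Cldn3), chr5:134945119-134946934 (Cldn4), chr17:23679249-23682446 (Cldn6), chr11:69964779-69967885 (Cldn7), chr15:101411043-101430313 (Krt7), chr11:100140810-100148665 (Krt19), chr11:112782224-112787760 (Sox9), chr5:104435118-104441050 (Spp1) and chr14:65968483-65981547 (Clu). Cldn4 and Cldn3 are neighbours on chromosome 5, with 39279 bases between them and on opposite strands. The build behind the deposited counts is not given in the sources used here.

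The first question was whether the 10 genes stand higher in the libraries named as tumors. For 0 of the 10 genes did all 4 libraries named as tumors lie above all 3 others, where 9.54% of 14913 genes did. With 10 genes, 0 is close to that share and is no result about the set. For 0 did all 4 lie below, where 36.8% of genes did. Afp did lie above in all 4, at 1288 CPM in NEJ634, 146 in NEJ687, 266 in NEJ709 and 488 in NEJ723, against 2.94 in NEJ638, 21.4 in NEJ654 and 14.9 in NEJ677. NEJ687 decided the first count of 0. It was the lowest of the 7 libraries for every one of the 10 genes, and without it 4 genes (Cldn4, Cldn6, Cldn7 and Krt7) separated the libraries named as tumors from the others, where 10.5% of all genes did.

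Epcam, the adhesion molecule of simple epithelia, stood at 8.65 CPM in NEJ634, 1.83 in NEJ687, 14.4 in NEJ709 and 45.7 (44.2 to 47.2) in NEJ723, and at 5.33 in NEJ638, 9.65 in NEJ654 and 13.02 (11.7 to 14.4) in NEJ677. By these values NEJ723 alone exceeded the highest healthy library beyond the counting intervals. Its Epcam level was 16.01 CPM with each cell weighted equally and 88.1 under the 99th percentile rule of cell calling alone, the highest of the 7 libraries both times. NEJ634 lay within the healthy range, and the interval of NEJ709 met that of NEJ677. Without barcodes kept in more than 1 library, Epcam stood at 9.32 CPM in NEJ709, 33.4 in NEJ723 and 11.3 in NEJ677. Here and below this filter drops every cell of such a barcode, the large ones as well as the faint copies. Among those dropped were a cell of 253127 UMIs in NEJ709 and one of 211530 UMIs in NEJ723. The lower levels are therefore no measure of what the faint copies added. NEJ709 moved the other way, to 22.7 CPM beside 15.4 in NEJ677, when haemoglobin and mitochondrial UMIs were left out of the totals, and to 22.8 beside 12.6 with cells of at most 10% mitochondrial UMIs, so its place beside NEJ677 depends on the setting. The level in cells was above that of ambient barcodes, beyond both intervals, in 6 libraries. The exception was NEJ687, where 3 ambient UMIs were counted.

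The claudins differed in how the healthy libraries stood beside the others. Cldn3, a claudin that hepatocytes and cholangiocytes both use, stood between 17.5 and 21.2 CPM in the 3 healthy libraries, and at 13.2 in NEJ634, 2.07 in NEJ687, 20.02 in NEJ709 and 61.0 in NEJ723. Cldn4 reached at most 0.742 CPM in the healthy libraries, where it rested on 4 to 16 UMIs each, and stood at 1.18 in NEJ634, 0.127 in NEJ687, 11.9 in NEJ709 and 19.3 in NEJ723. Cldn6, a claudin of embryonic epithelia, ranged from 0.444 to 1.15 CPM in the healthy libraries and stood at 4.66 in NEJ634, 0.254 in NEJ687, 5.25 in NEJ709 and 31.6 in NEJ723. Cldn7 ranged from 2.39 to 5.99 CPM in the healthy libraries and stood at 8.55 in NEJ634, 0.526 in NEJ687, 24.3 in NEJ709 and 93.4 in NEJ723. For these last 3 claudins NEJ634, NEJ709 and NEJ723 lay above all healthy libraries and NEJ687 below them. The NEJ723 levels moved with the weighting and the cell calling. With each cell weighted equally they were 20.7 CPM for Cldn3, 9.03 for Cldn4, 10.9 for Cldn6 and 36.2 for Cldn7, and under the 99th percentile rule alone 118, 35.1, 61.2 and 179. Cldn6 in NEJ687, at 0.318 CPM with equal weights, then lay above NEJ638 at 0.227. In no library was Cldn4 above the ambient level beyond the intervals, and in NEJ709 this held for all of the 10 genes but Epcam. Without barcodes kept in more than 1 library Cldn4 stood at 7.42 CPM in NEJ709, 0.341 in NEJ654 and 0.0745 in NEJ677, in place of 11.9, 0.742 and 0.359, and Cldn6 at 0.708 in NEJ677 and 0.341 in NEJ654.

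Of the keratins of simple epithelia, Krt7 did likewise and Krt19 did not. Krt7 ranged from 0.974 to 1.83 CPM in the healthy libraries and stood at 2.20 in NEJ634, 0.145 in NEJ687, 8.85 in NEJ709 and 17.5 in NEJ723. Krt19, the keratin most used to mark bile ducts, ranged from 2.94 to 4.70 CPM in the healthy libraries, above NEJ634 at 1.71 and NEJ687 at 0.0907 (5 UMIs) and below NEJ709 at 9.96 and NEJ723 at 14.8. Without barcodes kept in more than 1 library Krt19 stood at 6.27 in NEJ709 and 9.26 in NEJ723, and Krt7 at 0.584 in NEJ654. With each cell weighted equally NEJ723 stood at 5.57 CPM for Krt7 and 4.35 for Krt19, lower than NEJ709 at 7.12 and 6.11. Under the 99th percentile rule alone NEJ723 stood at 34.5 and 29.3. Sox9, a transcription factor of the ductal plate and of progenitors, was highest in NEJ634, at 20.9 CPM (19.8 to 22.1), and stood at 0.870 in NEJ687, 2.36 in NEJ709, 6.60 in NEJ723 and between 2.09 and 7.93 in the healthy libraries. Spp1, which encodes the secreted phosphoprotein osteopontin, stood at 88.6, 21.9, 66.0 and 231 CPM in NEJ634, NEJ687, NEJ709 and NEJ723, against 94.1, 85.5 and 208 in NEJ638, NEJ654 and NEJ677. Clu, the chaperone clusterin, ranged from 169 to 242 CPM in the healthy libraries and stood at 185 in NEJ634, 19.1 in NEJ687, 100 in NEJ709 and 292 in NEJ723. With each cell weighted equally NEJ723 stood at 122 CPM for Clu, under NEJ634 at 165, and at 125 for Spp1 and 3.21 for Sox9, while NEJ677 stood at 67.8 for Spp1 and 1.89 for Sox9 and NEJ638 at 56.7 for Spp1, 3.37 for Sox9 and 93.9 for Clu. Under the 99th percentile rule alone NEJ723 stood at 554 CPM for Clu and 12.2 for Sox9. For Sox9, Spp1 and Clu the 2 sets of libraries overlapped by the reported values. From these levels of whole libraries alone, fewer cells of a type and less RNA per cell cannot be told apart. Levels within cell classes follow below.

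**Figure D1:**
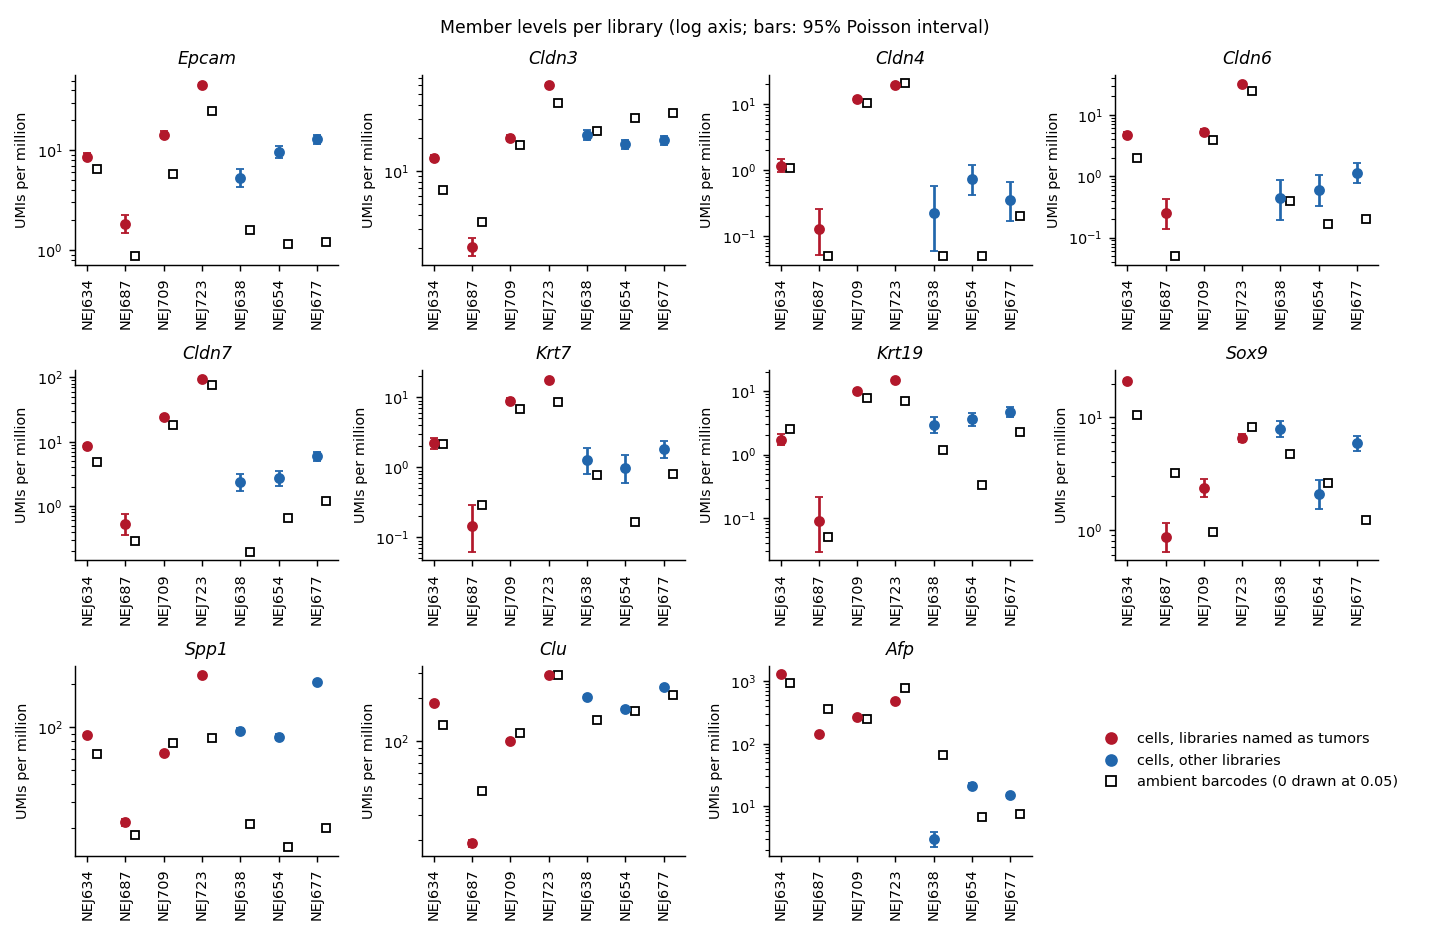
Levels of the 10 genes and Afp in each library, as UMIs per 1000000 UMIs on log axes. Filled points are the analysed cells with 95% Poisson intervals, red for the libraries named as tumors and blue for the others, and open squares are ambient barcodes of the same library. NEJ687 is the lowest library for each of the 10 genes, NEJ723 is the highest for 9, and the red points lie above all blue points for Afp alone.

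Which cells carried these UMIs differed sharply between libraries. Cells were clustered without the 10 genes, Afp or any claudin, and named as "-like" from other markers. A small epithelial compartment was split again into subclusters (0 to 4), which held 378 cells in subcluster 1, 78 in subcluster 2, 68 in subcluster 0, 47 in subcluster 4 and 32 in subcluster 3, besides 9 pancreatic acinar-like cells of NEJ638 left aside. Subclusters 1, 2 and 4 passed as cholangiocyte-like. In NEJ723 subcluster 1 was 2.38% of the cells and held between 82.5% and 91.7% of the UMIs of Afp and of each of the 10 genes except Spp1. In NEJ634 the subclusters made up 1.25% of the cells and held 30.1% of the Epcam UMIs, while hepatocyte lineage-like cells, 32.8% of the cells, held 36.8%. Those hepatocyte lineage-like cells also held 72.4% of the Sox9 UMIs, 67.9% of the Cldn3 UMIs and 53.0% of the Clu UMIs of NEJ634. In NEJ709 the unnamed cells, 93.8% of the cells, held between 54.5% (Epcam) and 83.2% (Clu) of the UMIs of each gene.

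In the healthy livers much of the Epcam and most of the Spp1 lay in very few cells. Subcluster 4 was 0.223% of the cells of NEJ638, 0.150% of NEJ654 and 0.229% of NEJ677, and it held 45.8%, 50% and 67.2% of their Epcam UMIs and 85.3%, 84.9% and 87.1% of their Spp1 UMIs. Their Cldn3 UMIs came mostly from hepatocyte lineage-like cells, at 81.2%, 62.9% and 53.4%. In NEJ687 the subclusters held 3 cells, none with an Epcam UMI, and 62.4% of the Epcam UMIs lay in T/NK-like cells.

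**Figure D2:**
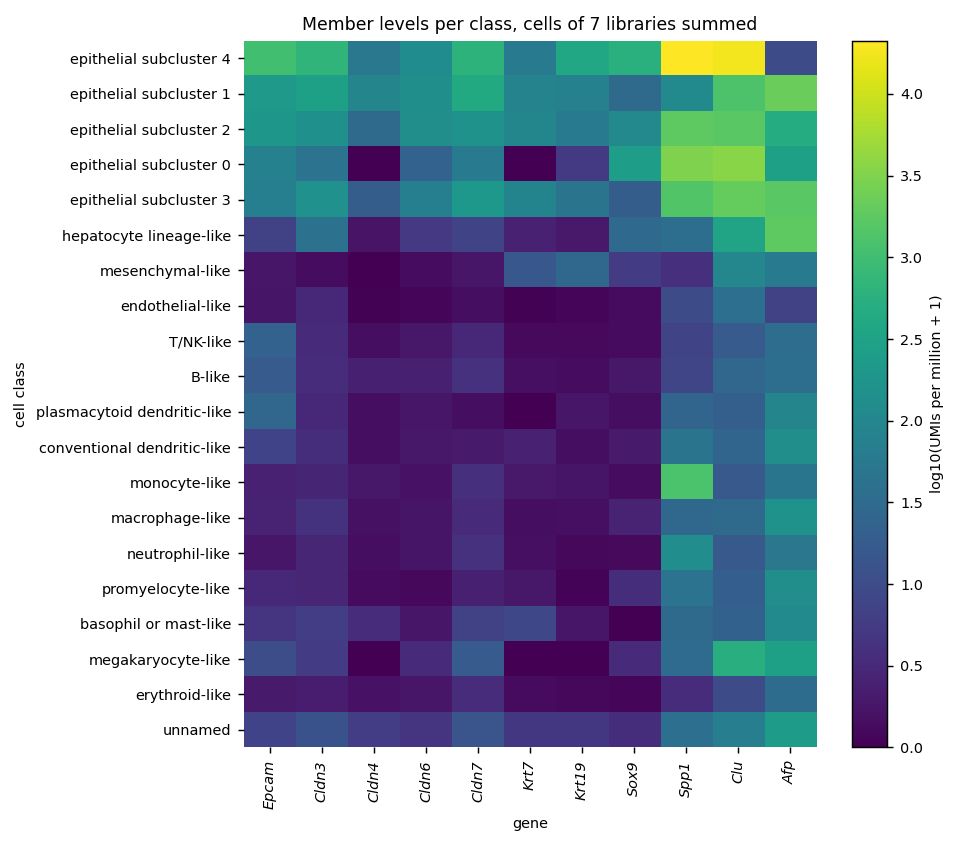
Levels of the 10 genes and Afp in each cell class, cells of all 7 libraries summed, as log10(CPM + 1) in colour. The epithelial subclusters form the bright rows at the top. Bright fields outside them include Afp and Clu in hepatocyte lineage-like, Spp1 in monocyte-like and neutrophil-like, and Clu in megakaryocyte-like cells. Krt7 and Krt19 in mesenchymal-like cells are fainter.

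Subcluster 4 was the duct-like epithelium. It was led by Scara3, Ddit4l, Fxyd3, Sftpd, Dcdc2a, Ehf and Pkhd1, and 12 of the 13 cholangiocyte markers were detected in it in each healthy library. Their summed level there was 5401 to 6286 CPM, against 50.8 to 73.5 CPM in the ambient barcodes of the same libraries. In NEJ638 subcluster 4 also held erythroid markers at 669 CPM, against 127 in the ambient barcodes. Haemoglobin was 7.85% of its UMIs there, against 0.0513% in NEJ654 and 0.0543% in NEJ677. It held 15 cells in NEJ638, 11 in NEJ654, 17 in NEJ677 and 4 in NEJ634, so its values rest on few cells. Subcluster 1 came from libraries named as tumors, with 296 cells in NEJ723, 44 in NEJ709, 34 in NEJ634 and 3 in NEJ687, besides 1 cell of NEJ654. It was led by Hspb1, Spink1, Ccn1, Bex1, Bicc1 and Dsg2. Of the 13 cholangiocyte markers, 12, 11 and 12 were detected in it in NEJ634, NEJ709 and NEJ723, at a lower sum of 1057 to 1233 CPM. Beside them it carried hepatocyte lineage markers at 12090 to 17153 CPM. In the ambient barcodes of NEJ634, NEJ709 and NEJ723 the cholangiocyte markers summed to 152, 94.8 and 276 CPM and the hepatocyte markers to 9570, 2764 and 8810. Those hepatocyte markers summed to 6918 to 15976 CPM in subcluster 4 of the healthy libraries and to 22027 to 33167 in their ambient barcodes. Subcluster and library cannot be told apart outside NEJ634, the 1 library with 4 or more cells of each.

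Of the epithelial subclusters, subcluster 1 held most of the shared barcodes (90 of its cells, against 3 in subcluster 0, 1 in subcluster 3 and 3 in subcluster 4). Most shared barcodes lay outside the epithelium. In subcluster 4, 1 of the 11 cells of NEJ654 was a faint copy, and without it Epcam there was 1739 CPM and Krt19 870. In NEJ709, 37 of its 44 cells were faint copies, with a median of 818 UMIs against 118824 for the same barcodes in NEJ723, or 0.589% to 0.798% of them. The other 7 cells of NEJ709 held 34788 to 253127 UMIs each. In NEJ723, 3 of 296 cells were faint copies of NEJ709 cells. The barcodes of all the other 293 were also listed in NEJ709, at a median of 304 UMIs, where their median was 0 or 1 in the remaining 5 libraries. The 7 large cells carry 747289 of the 779663 UMIs of the NEJ709 pool, so its levels describe 7 cells, and without the faint copies its Epcam level was 388 CPM in place of 385.

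**Figure D3:**
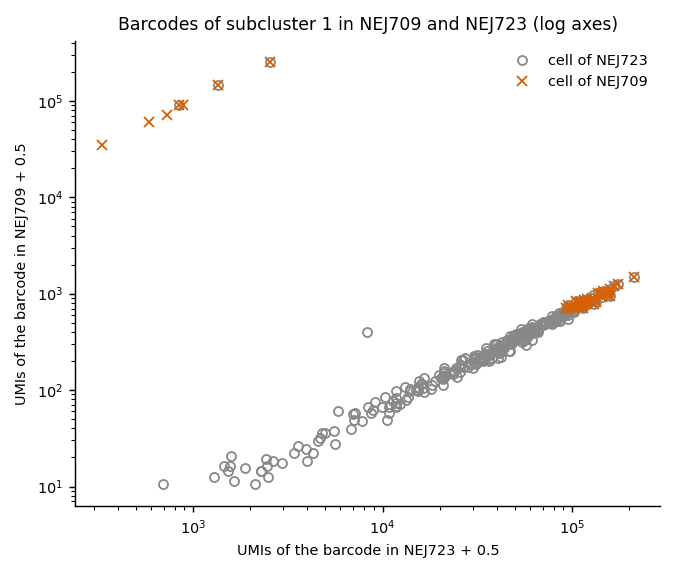
UMIs of each subcluster 1 barcode in NEJ723 and in NEJ709, with 0.5 added, on log axes. Grey circles are cells of NEJ723 and orange crosses are cells of NEJ709. The grey points follow a straight band in which NEJ709 holds a small fraction of the NEJ723 UMIs, the 37 faint copies sit at its upper end, and the 7 large cells of NEJ709 form a separate group at the upper left.

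Within the epithelium, 6 of the 10 genes were higher in subcluster 4 of each of the 3 healthy libraries than in subcluster 1 of each of NEJ634, NEJ709 and NEJ723, and 0 were lower in all. Of 11828 genes at 10 CPM or more in at least 1 of these pools, 16.3% were higher in this sense and 14.8% lower. The median difference of pooled levels, in log2(CPM + 1), was 1.82 over the 10 genes and 0.49 over all these genes. The smallest pool, subcluster 4 of NEJ654, held 60453 UMIs, so 1 UMI there passed the limit. The shares over all genes thus include genes of very few UMIs and are no matched background. The 6 genes were Epcam, Cldn3, Krt19, Sox9, Spp1 and Clu. The subclusters were made from genes that move with these, so the contrast is a description and was not tested.

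The adhesion gene and the duct keratin were higher in the healthy duct-like cells. Pooled levels of subcluster 1 mainly describe NEJ723, which gave 15287405 of its UMIs, beside 779663 from NEJ709 and 210806 from NEJ634. Epcam stood at 566 CPM (411 to 760) in NEJ638, 1720 (1406 to 2084) in NEJ654 and 1095 (962 to 1242) in NEJ677, against 147 (99.9 to 209) in subcluster 1 of NEJ634, 385 (342 to 431) in NEJ709 and 210 (203 to 218) in NEJ723. The intervals of the 2 sets were apart except for those of NEJ638 and NEJ709, which met, and the pooled levels of 1086 and 218 CPM differed 4.99-fold. Krt19 stood at 360, 926 and 368 CPM in subcluster 4 of NEJ638, NEJ654 and NEJ677, and at 9.49 (2 UMIs), 265 and 69.1 in subcluster 1 of NEJ634, NEJ709 and NEJ723. Its pooled levels, 460 and 77.7 CPM, differed 5.92-fold.

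By the pooled levels, Sox9 and the secreted proteins differed more. Within NEJ634, given below, Sox9 and Clu did not differ more than Epcam. Sox9 stood at 849, 314 and 588 CPM in subcluster 4 of NEJ638, NEJ654 and NEJ677, and at 152, 43.6 and 28.4 in subcluster 1 of NEJ634, NEJ709 and NEJ723, 19.5-fold apart when pooled. Spp1 reached 18607, 25888 and 22683 CPM in subcluster 4 and 351, 139 and 111 in subcluster 1, a pooled difference of 194-fold and the widest of the 10. In NEJ709, 1 cell held 104 of the 108 Spp1 UMIs of subcluster 1, and without it the level was 7.597 CPM. Clu reached 16164, 22546 and 18023 CPM in subcluster 4 and 4212, 854 and 1305 in subcluster 1, 13.9-fold apart when pooled. The NEJ634 values of subcluster 1 lean on 1 cell of 109036 UMIs, 51.7% of that pool. Without the largest cell of each pool Sox9 no longer separated the pools, and 5 of the 10 genes did.

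The remaining 3 claudins and Krt7 were carried at overlapping levels by both. Cldn7 stood at 424, 645 and 615 CPM in subcluster 4 and at 161, 622 and 426 in subcluster 1, in the same order of libraries. Cldn6 stood at 90.01, 66.2 and 94.3 CPM in subcluster 4 and at 166, 89.8 and 146 in subcluster 1. With each cell weighted equally, or without NEJ709, Cldn6 was lower in every subcluster 4 pool. Cldn4 stood at 51.4 (4 UMIs), 116 (7 UMIs) and 4.49 (1 UMI) CPM in subcluster 4 and at 37.9, 310 and 83.1 in subcluster 1. Krt7 stood at 77.2, 165 and 40.4 CPM in subcluster 4, on 6 to 10 UMIs each, and at 52.2, 192 and 80.5 in subcluster 1. Cldn3 did separate them, at 566, 777 and 736 CPM against 119, 328 and 280, a 2.52-fold difference of the pooled levels.

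Afp ran the other way. Subcluster 4 of NEJ638, NEJ654 and NEJ677 held 0 Afp UMIs, which allows up to 38.6, 49.6 and 13.5 CPM (3 UMIs in each pool), and subcluster 1 stood at 13173 CPM in NEJ634, 2245 in NEJ709 and 2048 in NEJ723. The largest cell of NEJ634 held 2669 of its 2777 Afp UMIs, and without it the level was 1061 CPM, still above each bound. The same cell held 23 of the 31 Epcam UMIs, and without it Epcam stood at 78.6 CPM.

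NEJ634 offers both kinds of cell in 1 library. Its 4 cells of subcluster 4 carried Epcam at 754 CPM (575 to 970), Spp1 at 15928, Clu at 15501, Sox9 at 364, Cldn3 at 502 and Cldn7 at 879 CPM, with Afp at 50.2 (4 UMIs). Krt19 was 25.1 CPM there (2 UMIs), below each healthy pool, and Cldn6 was 301 CPM (193 to 449), above each. Of these UMIs 1 cell held 53.4%. Subcluster 1 of the same library was lower in Epcam, Spp1, Clu, Sox9, Cldn3 and Cldn7 and higher in Afp, as above. Without the largest cell of each pool Sox9 turned, at 269 CPM in subcluster 4 and 314 in subcluster 1. Krt19 rested on 2 UMIs in each pool. Both pools are small.

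The other subclusters of NEJ634 mixed the epithelial genes with those of other cells. Subcluster 2 (75 cells), led by Ankrd1, Sorbs2 and Ccn1, carried Epcam at 204 CPM, Krt7 at 102, Cldn6 at 144, Spp1 at 1939 and Afp at 357 CPM, beside neutrophil markers at 47988 CPM against 21267 in the ambient barcodes. Subcluster 0 (68 cells) carried Spp1 at 3036, Clu at 3574 and Sox9 at 252 CPM, 0 UMIs of Cldn4 and Krt7, and macrophage markers at 8098 CPM against 1999 in the ambient barcodes. Subcluster 3 (32 cells) carried Epcam at 71.4, Sox9 at 17.9 and Afp at 1652 CPM, beside conventional dendritic markers at 268 CPM and T/NK markers at 929, against 36.1 and 478 in the ambient barcodes. The part of cells captured together in these values was not tested.

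**Figure D4:**
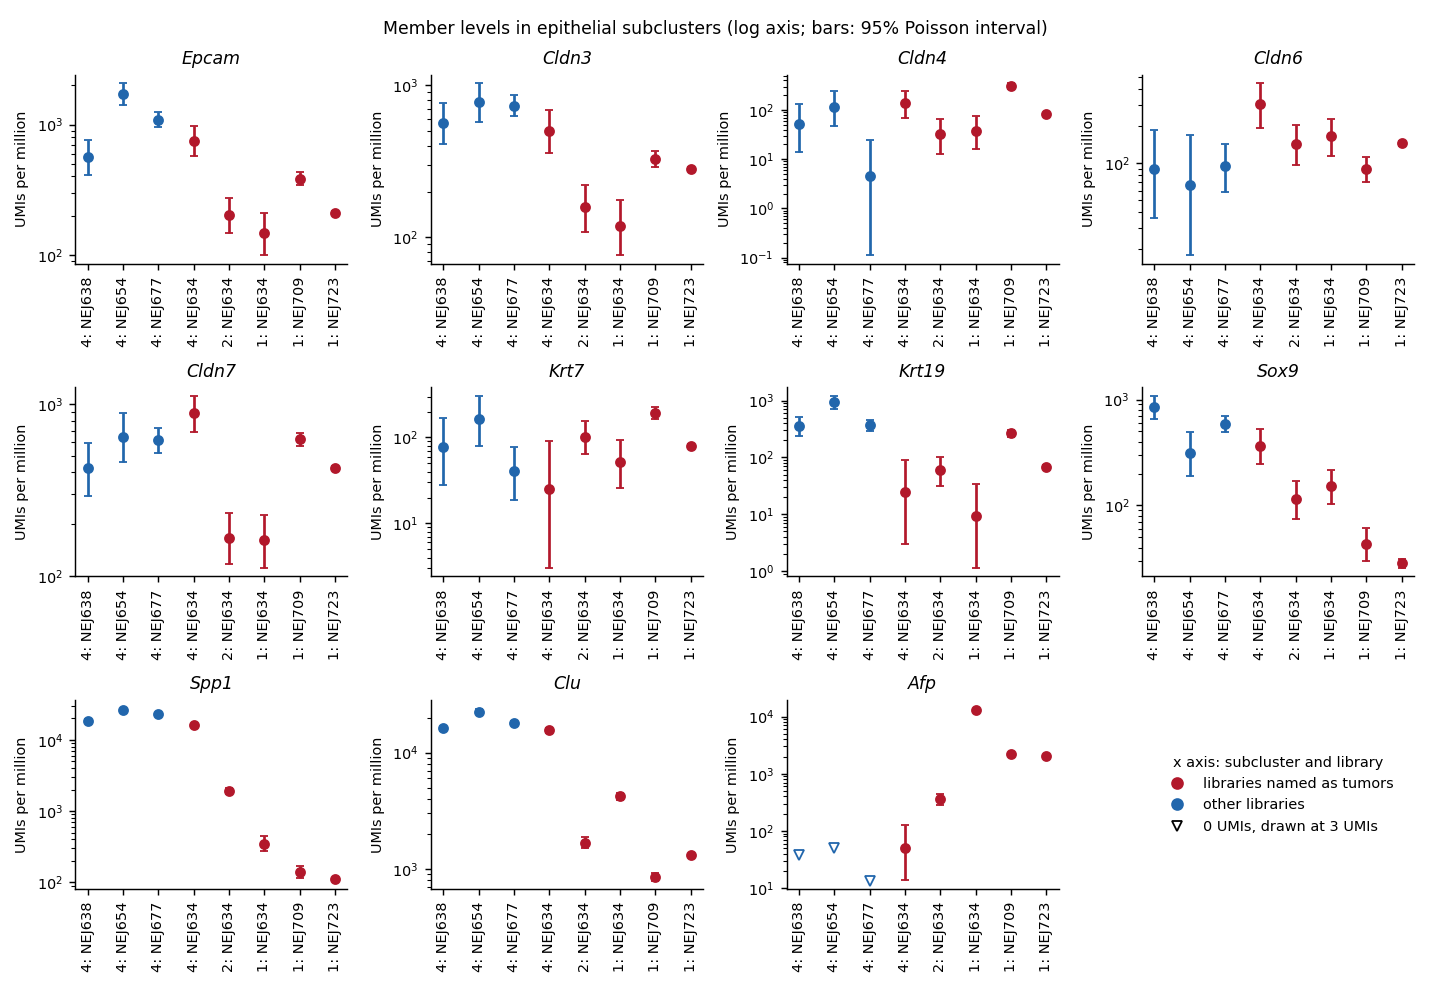
Levels of the 10 genes and Afp in subclusters 4, 2 and 1 of each library, as UMIs per 1000000 UMIs on log axes with 95% Poisson intervals, red for the libraries named as tumors and blue for the others. Open triangles stand for pools with 0 UMIs and are drawn at 3 UMIs. Spp1, Clu and Sox9 step down from subcluster 4 to subcluster 1, Cldn4, Cldn6, Cldn7 and Krt7 overlap, and Afp steps up.

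Several epithelial genes outside the 10 were set beside this contrast. Of 16 genes of tight junctions and epithelial adhesion, 15 reached 10 CPM, 8 were higher in subcluster 4 in every library, 7 overlapped and 0 were lower, with a median log2 difference of 1.19. Dsg2, a desmosomal cadherin, stood at 480 to 1003 CPM in subcluster 4 and at 148 to 280 in subcluster 1. Rab25, a GTPase of apical recycling, stood at 64.3 to 199 CPM against 0 to 1.28. Prom1, a membrane protein of progenitor and duct cells, stood at 154 to 215 CPM against 6.41 to 18.97. The keratin Krt8 overlapped, at 1209 to 1621 CPM in subcluster 4 and 1339 to 3403 in subcluster 1.

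Of 15 biliary and epithelial regulators tested, 9 were higher in subcluster 4 and 6 overlapped, with a median log2 difference of 1.94. Hes1, a target of Notch signalling, stood at 655 to 1749 CPM against 128 to 291, and Onecut2 at 274 to 540 against 7.69 to 28.5. Yap1 overlapped, at 0 to 64.3 CPM in subcluster 4 and 32.4 to 47.4 in subcluster 1. Grhl2 had 16.5 to 44.9 CPM in subcluster 4 and 0 to 1.28 in subcluster 1, while Esrp1, an epithelial splicing factor, overlapped. These calls rest on few UMIs in subcluster 4, with 13 of Grhl2, 9 of Esrp1 and 11 of Yap1 over the 3 healthy libraries.

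Of a list of 6 genes linked to hepatoblastoma, 5 were higher in subcluster 1 (Afp, Igf2, Dlk1, Gpc3 and H19) and Glul overlapped. No median is given, since Afp, Igf2, Dlk1 and H19 had 0 UMIs in subcluster 4. The list was chosen with results of these data known, so its direction is no independent evidence. Epcam and Krt19, which the study also used as hepatoblastoma markers, are among the 10 genes and not in this list, and both were higher in subcluster 4. Igf2, a fetal growth factor, stood at 1001 to 1464 CPM in subcluster 1 and had 0 UMIs in subcluster 4. Of the 19 other claudins, 12 stayed under 10 CPM in every pool of subclusters 1 and 4 compared. Cldn2 and Cldn8 were higher in subcluster 4 (62.8 to 129 CPM against 5.69 to 33.2, and 16.5 to 77.2 against 0), Cldn18 was higher in subcluster 1 (16.7 to 138 CPM against 0), and 4 overlapped, with a median log2 difference of -0.14. In subcluster 4 Cldn8 rested on 18 UMIs, and the 4 that overlapped on 1 to 5 UMIs each.

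Cell by cell, more of the 10 genes were found in subcluster 4, where Spp1 and Clu were in nearly every cell. After each cell was thinned to 1000 UMIs, a cell of subcluster 4 held a UMI of 4 of the 10 genes at the median in each of the 3 healthy libraries, and between 88.2% and 100% of its cells held 3 or more. The median was 2 genes in subcluster 1 of NEJ634, NEJ709 and NEJ723, with 26.5% to 40% of cells holding 3 or more. Spp1 was found in 15 of 15, 10 of 10 and 16 of 17 thinned cells of subcluster 4 and Clu in all of them, whereas in subcluster 1 of NEJ723 Spp1 was in 27 and Clu in 176 of 294, so much of the difference in count comes from Spp1 and Clu. The 15 cells of NEJ709 deep enough to be thinned include faint copies, and 7 of the 15 were not faint copies. Hepatocyte lineage-like cells had a median of 0 or 1, and T/NK-like cells of 0.

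Co-detection with Afp was asked next, since a cell with both would carry a biliary and a fetal hepatocyte gene at once. At 1000 UMIs per cell, 75 of 142 Epcam-positive cells of NEJ634 held an Afp UMI (52.8%, exact binomial interval 44.3 to 61.2), as did 45.0% of its Epcam-negative cells. In NEJ709 it was 34 of 125 (27.2%, 19.6 to 35.9), against 21.5% of negative cells. In both, the interval of the positive cells covered the share of the negative ones in this draw of UMIs. With another random draw the share was 58.2% (49.4 to 66.7) in NEJ634, above the 45.0%, and 20.5% (13.9 to 28.3) in NEJ709, so whether NEJ634 has a gap depends on the draw. The other shares below rest on the first draw. NEJ723 differed: 71 of 133 Epcam-positive cells held Afp (53.4%, 44.5 to 62.1), against 13.7% of negative cells. NEJ687 had 2 of 24 (8.33%), against 4.90% of negative cells. The healthy libraries had 0 of 28 in NEJ638, 0 of 37 in NEJ654 and 0 of 38 in NEJ677, with exact intervals that reach 12.3%, 9.49% and 9.25%.

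The share of T/NK-like cells with an Afp UMI was read as a floor to these shares. The source of their Afp UMIs was not tested. T/NK-like cells, which should lack Afp, held an Afp UMI in 13.5%, 2.39%, 9.80% and 10.8% of cells in NEJ634, NEJ687, NEJ709 and NEJ723, and in 0 to 0.512% in the healthy libraries. Their unthinned median depth was 3806 to 7725 UMIs in the libraries named as tumors and 1642 to 3006.5 in the others. The share in Epcam-positive cells of NEJ687 rests on 2 of 24 cells, and its interval of 1.03% to 27.0% covers that floor, while the other draw gave 17.4% (4.95 to 38.8) of 23 cells, above it. In NEJ654 and NEJ677, 96.1% and 93.98% of the few Afp UMIs lay in unnamed cells, many of them in a cluster of 363 cells of which 352 have barcodes shared between libraries. Without shared barcodes Afp stood at 1.02 and 0.969 CPM there, in place of 21.4 and 14.9.

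**Figure D5:**
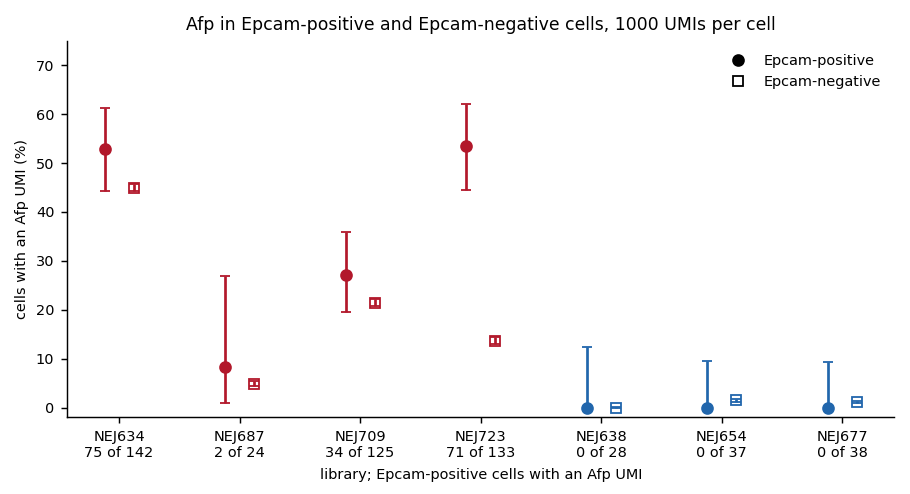
Percent of cells with an Afp UMI among Epcam-positive (filled circles) and Epcam-negative (open squares) cells of each library, thinned to 1000 UMIs, with exact 95% binomial intervals. The gap between the circle and the square is clear of both intervals in NEJ723, and the 3 healthy libraries have 0 double-positive cells among 28, 37 and 38.

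The gap of NEJ723 was not seen within its epithelial cells. Of its 133 Epcam-positive cells, 56 were of subcluster 1, 45 unnamed and 13 T/NK-like. Within subcluster 1, 41 of 56 Epcam-positive cells held Afp (73.2%, 59.7 to 84.2), as did 75.2% of the Epcam-negative cells. The same held within that subcluster for Cldn3 (77.2% against 74.0%), Cldn4 (74.1% against 74.9%), Cldn6 (73.0% against 75.1%) and Krt19 (75% against 74.8%). Cldn7 (80.2% against 72.2%), Krt7 (62.5% against 75.9%) and Clu (79.5% against 67.8%) had overlapping intervals too. Without the faint copies Sox9 was found in 6 cells, and all 6 held Afp, against 74.5% of Sox9-negative cells. Spp1 stood apart, with Afp in 9 of 27 Spp1-positive cells (33.3%, 16.5 to 54.0) against 79.0% (73.6 to 83.8) of Spp1-negative cells, and the same 9 of 27 without the faint copies. Cells of 1 library are not replicates, and this is a description of that library.

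In NEJ634 the hepatocyte lineage-like cells gave most double-positive cells. Of 142 Epcam-positive cells, 53 were hepatocyte lineage-like, and 45 of those held Afp (84.9%, 72.4 to 93.3), against 75.2% of the Epcam-negative ones. Cldn7-positive cells of this class held Afp in 41 of 44 (93.2%, 81.3 to 98.6), above the 75.2% of negative cells. Sox9-positive cells did so in 101 of 166 (60.8%, 53.0 to 68.3) and Spp1-positive cells in 102 of 163 (62.6%, 54.7 to 70.02), both below the 75.8% and 75.7% of negative cells. Afp was also held by 78 of 105 Cldn3-positive, 12 of 18 Cldn6-positive and 728 of 955 Clu-positive cells of this class. The remaining genes had few positive cells, with Afp in 11 of 11 for Krt19, 8 of 9 for Krt7 and 6 of 7 for Cldn4. Cells of the same library are not replicates, so these intervals describe NEJ634 in the first draw of UMIs. The median depths of positive and negative cells were 3058 and 3025 UMIs for Epcam and 3055.5 and 3023 for Sox9. Subcluster 4 had no double-positive cell in the healthy libraries, which follows from its 0 Afp UMIs there and adds nothing to that count. Its Epcam-positive cells numbered 4, 6 and 12 in NEJ638, NEJ654 and NEJ677, and 12, 10 and 17 without thinning.

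Several of the 10 genes were also carried outside the epithelium. Epcam was present in T/NK-like cells of all 7 libraries, at 24.0, 40.5, 39.2 and 14.0 CPM in NEJ634, NEJ687, NEJ709 and NEJ723 and 25.5, 19.1 and 14.7 in NEJ638, NEJ654 and NEJ677. Neutrophil-like cells of the same libraries held 0 to 3.16 CPM, and endothelial-like cells 0 to 3.01 in the 6 libraries with at least 20 such cells. In NEJ638, NEJ654 and NEJ677 it was higher in the cluster led by the NK genes Ncr1 and Klrb1c (47.4, 45.3 and 38.7 CPM) than in the T-cell cluster led by Cd8b1 and Trac (7.94, 5.78 and 5.04 CPM), with no overlap of the intervals. Plasmacytoid dendritic-like cells held 14.7 to 35.3 CPM. These cells made up most Epcam-positive cells of some libraries: of 28 in NEJ638, 15 were T/NK-like, 6 B-like and 3 plasmacytoid dendritic-like, and 4 were of subcluster 4.

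Spp1 was a myeloid gene as well as a duct gene. Monocyte-like cells held 464, 60.5, 355 and 2457 CPM in NEJ634, NEJ687, NEJ709 and NEJ723, against 2.03 (1 UMI) in NEJ638, 0 UMIs in NEJ654, which allows up to 4.63 CPM (3 UMIs), and 174 in NEJ677. In NEJ723 those cells held 82.2% of all Spp1 UMIs. Neutrophil-like cells held 95.8 to 174 CPM in the libraries named as tumors and 239, 20.7 and 22.1 in NEJ638, NEJ654 and NEJ677. In NEJ687 neutrophil-like cells held 72.0% of the Spp1 UMIs and monocyte-like cells 12.6%, so the level of Spp1 in whole libraries came mostly from duct-like cells in the healthy livers and from myeloid cells in NEJ687 and NEJ723.

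Hepatocyte lineage-like cells carried Clu, Cldn3 and some Sox9. Clu stood at 796, 789 and 613 CPM in those of NEJ638, NEJ654 and NEJ677, and at 244 (238 to 250) and 149 (137 to 160) in NEJ634 and NEJ687. Cldn3 did the same, at 118, 121 and 83.3 CPM against 22.2 (20.4 to 24.1) and 16.2 (12.7 to 20.5). The class lies in different clusters, mostly cluster 0 in NEJ634 (5378 cells) and NEJ687 (226), cluster 8 in NEJ638 (312) and NEJ654 (298) and cluster 9 in NEJ677 (791). In cluster 8 Clu stood at 811, 1024 and 1512 CPM in NEJ638, NEJ654 and NEJ677 and at 307 in the 110 such cells of NEJ634. The difference was not uniform, since cluster 23, which is 54 cells of NEJ634, held Clu at 2594 CPM (2374 to 2828) and Cldn3 at 85.6, the Clu above cluster 8 of every healthy library. Cluster 9 held Clu at 55.03 CPM in NEJ654 and 156 in NEJ677, below cluster 0 of NEJ634 at 222. Cldn3 stood at 121, 144 and 187 CPM in cluster 8 of the healthy libraries, at 46.6 and 30.7 in cluster 9 of NEJ654 and NEJ677, and at 19.9 in cluster 0 of NEJ634. In NEJ709 and NEJ723, with 11 and 10 such cells, Cldn3 stood at 82.0 and 122 CPM. Sox9 was highest in NEJ634, at 37.6 CPM (35.2 to 40.1), then 25.5 (19.7 to 32.4) in NEJ638, 9.84 in NEJ687, 9.68 in NEJ654 and 5.30 in NEJ677. The last 3 did not differ beyond their intervals. Clu was also carried by megakaryocyte-like cells, at 214 CPM in NEJ634, 841 in NEJ723 and 1117 in NEJ687, the libraries with at least 20 of them. Afp in hepatocyte lineage-like cells stood at 2419 and 1557 CPM in NEJ634 and NEJ687 and at 2.04 to 9.13 in the healthy libraries.

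Mesenchymal-like cells of 2 healthy livers carried the keratins. Krt19 stood at 64.5 CPM in NEJ638 and 56.0 in NEJ677, and at 6.87 in NEJ654 and 6.04 in NEJ634. Krt7 stood at 43.8 and 26.4 CPM in NEJ638 and NEJ677, at 3.02 in NEJ634 (1 UMI) and at 0 UMIs in NEJ654. The 8 mesothelial markers, of the cells that cover the organ surface, summed to 774 and 663 CPM in these cells of NEJ638 and NEJ677, and to 47.1 and 84.6 in NEJ654 and NEJ634. Their part in the keratin levels was not tested.

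Likeness of pattern was measured over 93 pools, each 1 class in 1 library with at least 20 cells, as Pearson's r of log2(CPM + 1). The pools share libraries, ambient RNA and depth, so r is a description. No library held 20 cells of subcluster 4, so the duct-like cells are in none of these pools. Spp1 and Clu were both highest in those cells, so r and the closest genes describe the other cells only. The closest pair among the 10 was Cldn6 and Cldn7 (r = 0.92), then Krt7 and Krt19 (0.82) and Cldn4 and Cldn7 (0.81), and the least alike were Spp1 and Clu (0.27). Outside the 10, the genes most like Cldn6 were Anxa13 (0.91) and Fermt1 (0.88), which were also the most like Cldn7 (0.87 and 0.86). Cldn4 was most like Igf2bp1 (0.89), Inava (0.87) and Anxa13 (0.83), and Cldn3 most like Mal2 (0.85), Gimd1 (0.84) and Slc44a3 (0.84). Epcam was closest to Tubb2b (0.76), Foxp4 (0.73) and Atp1b1 (0.68). Krt7 was closest to Zim1 (0.81) and Fxyd3 (0.80) besides Krt19, and Krt19 to Fxyd3 (0.88) and Zim1 (0.82). Sox9 was closest to Tenm3 (0.86), Slc4a4 (0.86) and Cxadr (0.84), Clu to C130074G19Rik (0.83), Col18a1 (0.83) and Vtn (0.81), and Spp1 to Clec4e (0.61), Mapk13 (0.60) and Adam8 (0.60).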

How the data were processed

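Per the file headers, the authors deposited raw UMI counts for every barcode, made with Cell Ranger (the headers name release 4, the submitters' processing notes 6.0), unfiltered and not normalized. Build and annotation are not given in the sources used here.

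The labels gave 0 groups, so no test was run. Members and lists were chosen with earlier results of these data known. Empty droplets were removed by the 99th percentile rule and an ambient test (barcodes ranked 45000 to 90000, adjusted p 0.01, at most 20000 barcodes tested, a limit reached in NEJ634, NEJ709 and NEJ723). Barcodes at or under 500 UMIs or over 20% mitochondrial UMIs were left out, and Scrublet's highest scores removed as doublets at 0.8% per 1000 cells. Leiden clustering (scanpy 1.11.5, resolution 1, subclusters 0.2) used 2000 variable genes without the 10 genes, Afp and 19 other claudins. Names came from 166 markers of 18 classes (mean log2 fold 1.5, lead 1, at least 3 markers), and naming limits and subclustering were set after seeing data. Genes named beyond the members are the 3 most alike in pattern and those in the lists. Depth was 40214395 to 132485391 UMIs. Single libraries leave sampling between animals unmeasured. Cell calling and naming were tested on simulated data. Alternatives changed calling, doublets, totals, weighting, shared barcodes and thinning. Spatial, bulk and screening data were not analysed here.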

Additional observations from a re-analysis of the deposited data

How the results depend on the processing

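No paired analysis was possible because the labels give no groups and no replicate numbers. The count of members for which all libraries named as tumors lay above the others was 0 to 4 when each library was left out in turn, the 4 being reached without NEJ687, and 0 under every other alternative run. With each cell weighted equally, 33 of the 70 member levels per library stayed within 1.5 times the reported value. The count of 6 genes higher in subcluster 4 was 5 without the largest cell of each pool and 6 under the other alternatives run. The Epcam level in cholangiocyte-like cells (subclusters 1, 2 and 4) of NEJ709, 379 CPM, became 329 without barcodes kept in more than 1 library, 425 with subclustering at resolution 0.5 and 305 without the largest cell. That of NEJ723, 210 CPM, became 202, 242 at resolution 0.5 and 219 at resolution 1. The share of Epcam-positive cells with Afp was higher where more UMIs per cell were kept. At 500 UMIs per cell it was 41.8% in NEJ634 and 17.9% in NEJ709, and at 2000 UMIs 66.1%, 37.3% and, in NEJ723, 62.2%. Without thinning it was 75.8%, 59.6% and 73.3%, and with at least 2 Epcam UMIs 76.7%, 69.7% and 94.8%, in NEJ634, NEJ709 and NEJ723. Under the 99th percentile rule alone it was 0% in NEJ687 (1 Epcam-positive cell), 19.2% in NEJ709 and 70% in NEJ723. Without lymphocytes and plasmacytoid dendritic-like cells it was 50% in NEJ687 (1 of 2 cells). The healthy libraries stayed within their intervals in all of these. The cause of these changes was not tested. Faint copies, subclustering resolution, the largest cell, the classes left out and the whole contrast of subclusters 4 and 1 were chosen after seeing the data. Counting depth limits Cldn4 and Krt7 in the healthy duct-like cells and Cldn4, Cldn6, Krt7 and Krt19 in NEJ687 (5 to 14 UMIs).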
